A study of Mus musculus with 6 samples.

Results

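Ribosome biogenesis is the work of the nucleolus, and the genes described here encode its core machinery. They are the protein-coding genes whose symbols begin with Utp, Nop, Nol or Rrp followed by a digit, or with Polr1. Noc2l, Noc3l, Noc4l, Bop1, Pes1, Wdr12, Ncl, Npm1, Fbl, Gar1, Dkc1 and Nhp2 were added by name. The rule uses names only and no measured value. It found 53 of the 54532 genes in the table, and 52 of them passed the filter (an average of 1 FPKM or more across the 6 libraries), as 12749 genes did in all. FPKM counts fragments per kilobase of gene, scaled to the mapped reads of the library, so levels of different genes are compared here per length. The gene left out was Nol4, which was listed at 0 in all 6 libraries.

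RNA was sequenced from N2a cells, an established mouse neuroblastoma line that grows continuously and is widely used to study neurites. The labels give the strain C57BL/6, which the study's methods name for its mice and primary neurons and not for N2a cells. All cells were kept in minimum essential medium with fetal bovine serum and were transfected with an siRNA. In 3 libraries this was si-NC, the negative control, and in the other 3 it was si-circRtn4, directed against circRtn4, a circular RNA made from exons of Rtn4. The comparison asks which mRNAs differ once circRtn4 is silenced. No differentiation treatment or time after transfection is given in the labels. The study's general methods describe that transfected N2a cells were later moved to a differentiation medium with retinoic acid and little serum, and the labels do not say whether this holds for the sequenced libraries.

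In the nucleolus, RNA polymerase I copies the ribosomal DNA into a long precursor RNA. Small nucleolar RNPs of the box C/D and box H/ACA kinds guide its methylation and pseudouridylation, and the small subunit processome and the 60S assembly factors fold and cut it while ribosomal proteins bind. Growing cells, neuroblastoma cells among them, express these factors at high levels, and the Myc family of transcription factors is known for driving them.

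Each library held 13541198 to 15122063 reads on genes, recovered from the FPKM values and gene lengths, and 0.582% to 0.702% of them fell on the 53 genes. Rtn4 itself was at 61.0, 66.8 and 69.8 FPKM with si-NC and at 50.1, 56.7 and 62.7 FPKM with si-circRtn4. Its log2 fold change was -0.22 (limma adjusted p = 0.216, and 0.0447 with the replicate number as a block). Reads of linear and circular Rtn4 are counted together, so these values do not check the knockdown. All 11 noradrenergic neuroblastoma markers had a mean of at least 1 FPKM with si-NC and 9 of 11 with si-circRtn4, where Dbh was at 0.602 FPKM and Th at 0.712 FPKM. In the test, 5 of the 11 were called lower (Phox2a, Gata2, Chga, Dbh and Th), where 4.82% of all genes tested were. The summed level of all 11 was 1297 to 1378 FPKM with si-NC and 804 to 1100 FPKM with si-circRtn4. The part of this difference in the results below was not tested. In bulk RNA, fewer cells of a kind and less RNA per cell cannot be told apart. None of 6 fibroblast and none of 6 leukocyte markers reached a mean of 1 FPKM in either group. The fibroblast sums were 0.301 to 0.503 and 0.509 to 0.786 FPKM, and the leukocyte sums 0.318 to 1.38 and 0.575 to 1.08 FPKM, with 3 and 4 leukocyte genes at 0. Of 6 glial markers only Mbp did, and the glial sum was 5.05 to 5.77 FPKM with si-NC and 3.67 to 5.55 FPKM with si-circRtn4.

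The ribosome biogenesis genes were expressed above the middle of all genes tested, which also include non-coding genes. Averaged over the 6 libraries, their median level was 18.5 FPKM against 8.25 FPKM for all genes tested. Npm1 (nucleophosmin, a chaperone of the granular nucleolus) was the highest at 372 FPKM, and Wdr12, a 60S assembly factor, the lowest at 3.30 FPKM. These ranks depend on the deposited gene lengths, 11955 bases for Wdr12 and 2665 for Npm1. By reads Rrp36 was lower, at 231 to 293 per library against 492 to 731 for Wdr12. Ncl, with 10188 bases, was at 89.5 FPKM on 11711 to 14730 reads, against 13087 to 16160 for Npm1. In a single library, the 52 genes rested on 231 to 16160 reads each. Their summed FPKM was 1564, 1750 and 1845 with si-NC and 1645, 1886 and 1888 with si-circRtn4, so the sums of the groups overlapped. Within pairs of the same replicate number, the sum was higher with si-circRtn4 in 3 of 3 pairs, and so was the share of reads on these genes. Npm1 alone made up 19.4% to 23.0% of the sum.

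**Figure D1:**
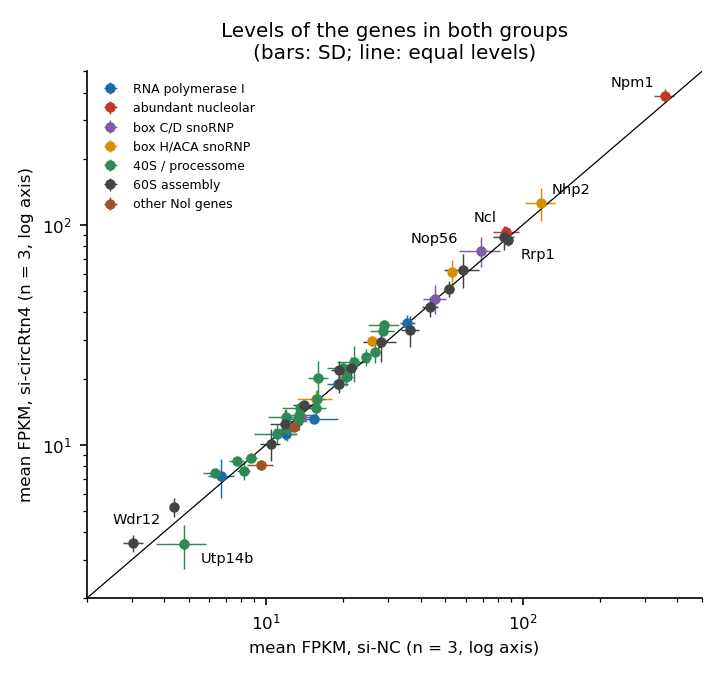
Mean FPKM of each of the 52 genes with si-NC (horizontal, log axis) and si-circRtn4 (vertical, log axis), 3 libraries each, with SD bars and a line of equal levels. The points lie along the line from Wdr12 (3.30 FPKM) to Npm1 (372 FPKM), and Utp14b is the point farthest below it.

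To find whether the machinery changed after circRtn4 knockdown, log2(FPKM + 1) was tested with limma across all genes. None of the 52 genes passed an adjusted p of 0.05 in either direction, where 4.36% of all genes tested were called higher and 4.82% lower. At an unadjusted p under 0.05, 4 of them were higher and 0 lower, against 13.1% and 12.8% of all genes. limma-voom on the recovered reads also called 0 of them, against 7.08% higher and 5.69% lower of all genes. With the replicate number as a block, 2 were called higher (Utp4 and Rrp9) and 1 lower (Utp14b), while 9.29% of all genes were called higher and 9.75% lower. The lowest adjusted p without the block was that of Utp4 (limma adjusted p = 0.15).

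The log2 fold changes ran from -0.35 (Utp14b) to 0.30 (Rrp9), with 32 above 0 and 20 below. Their median was 0.038, beside 0.0020 for all genes tested. It stayed above 0 under each other scaling and pseudocount, between 0.040 and 0.13, but some of these scalings moved the median of all genes too. As TPM, as TPM without Gm23935 and in limma-voom, the median of the 52 genes was 0.13, 0.059 and 0.064. That of all genes was 0.090, 0.021 and 0.025. On the FPKM scale the median of the 52 genes fell to -0.037 without si-NC replicate 1 and to -0.028 without si-circRtn4 replicate 2. Each 95% interval is for a single gene on the scale of log2(FPKM + 1), which understates changes of low genes. The intervals were not adjusted for the number of genes. All 52 intervals lay within 1 log2 unit of 0, and 47 of 52 (90.4%) lay within 0.5, as did 64.2% of all genes tested. The interval that reached farthest was that of Utp14b, to -0.76.

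**Figure D2:**
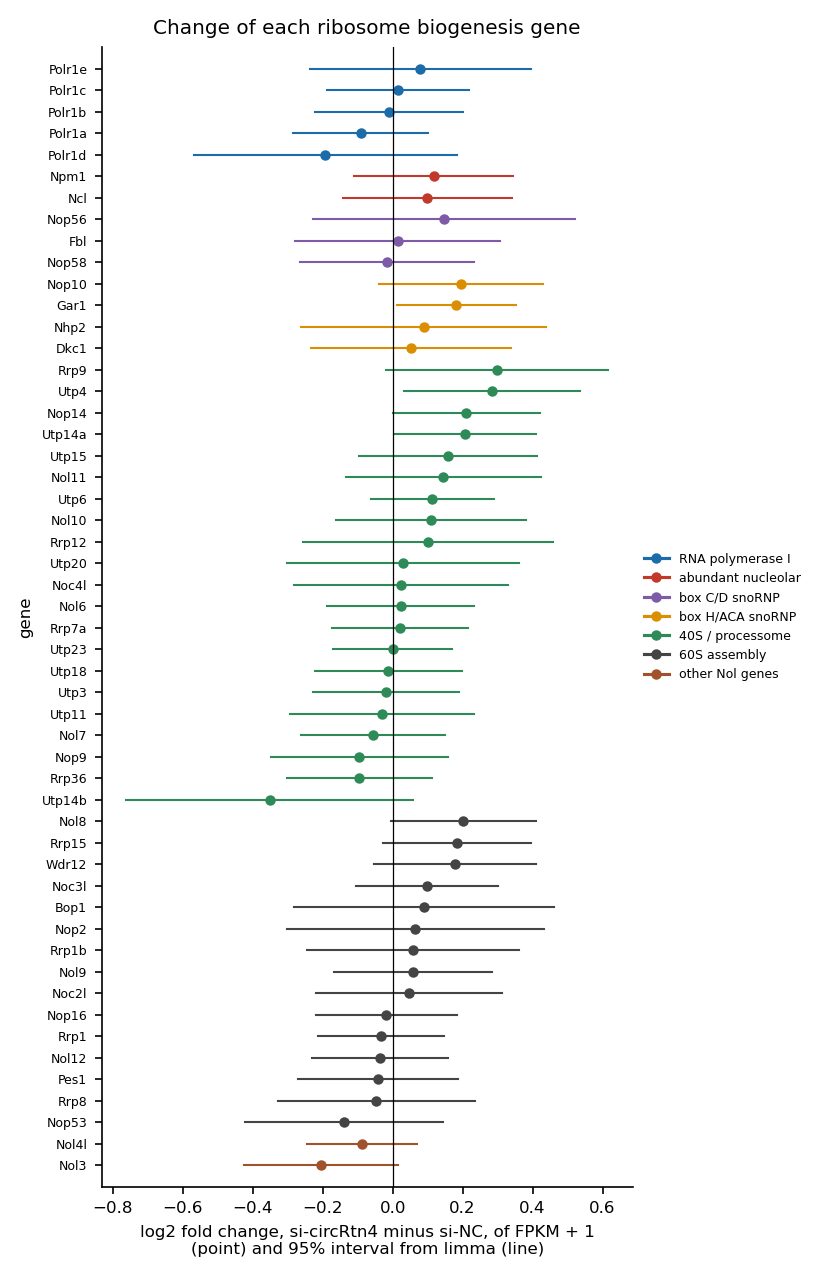
Log2 fold change (si-circRtn4 minus si-NC, of FPKM + 1; horizontal) of the 52 genes, grouped by role, with 95% intervals from limma over 3 libraries per group. The values run from -0.35 (Utp14b) to 0.30 (Rrp9), and 4 intervals lie wholly above 0 (Utp4, Gar1, Utp14a and Nop14).

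RNA polymerase I makes the ribosomal precursor RNA, and 5 of its subunits matched the rule by their symbols. None passed the test, 2 log2 fold changes were above 0 and 3 below, and their median was -0.0099. Polr1a, the largest subunit, was at 10.7, 12.6 and 12.6 FPKM with si-NC and at 10.95, 11.4 and 11.1 FPKM with si-circRtn4. Polr1b, the second largest subunit, was at 17.0, 19.9 and 20.4 FPKM with si-NC and at 17.6, 19.4 and 19.7 FPKM with si-circRtn4. In both genes the si-circRtn4 values fell inside the si-NC range. Polr1a had a log2 fold change of -0.09 ± 0.082 (SE, limma adjusted p = 0.538). That of Polr1b was -0.01 ± 0.091 (limma adjusted p = 0.962), and it turned to 0.08 as TPM, 0.011 as TPM without Gm23935 and 0.014 in limma-voom. These scalings move the median of all genes to 0.090, 0.021 and 0.025, and Polr1b stayed below that median in each.

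Polr1c and Polr1d, which RNA polymerases I and III share, differed in their spread. Polr1c was at 37.5, 32.9 and 36.3 FPKM with si-NC and at 36.5, 32.9 and 38.5 FPKM with si-circRtn4. Polr1d was at 17.6, 11.1 and 17.4 FPKM with si-NC and at 13.1, 12.6 and 13.4 FPKM with si-circRtn4. Replicate 2 of si-NC was the lowest Polr1d library of all 6, and the other si-NC libraries were the highest. For Polr1d it was -0.19 ± 0.16 on the log2 scale (limma adjusted p = 0.507), and without si-NC replicate 2 it was -0.40. Polr1e, a subunit that aids initiation, was the lowest of the 5, at 6.22, 6.28 and 7.59 FPKM with si-NC and at 6.62, 8.82 and 6.12 FPKM with si-circRtn4. The lowest and the highest si-circRtn4 library of Polr1e lay on either side of all si-NC libraries.

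Nucleophosmin and nucleolin are the abundant proteins of the nucleolus. Npm1 lies on chromosome 11, minus strand, from 33152287 to 33163206, and Ncl on chromosome 1, minus strand, from 86344719 to 86359400 (GRCm38). Npm1 was at 325, 355 and 391 FPKM with si-NC and at 378, 367 and 417 FPKM with si-circRtn4. Ncl was at 76.2, 87.0 and 96.4 FPKM with si-NC and at 86.4, 91.5 and 99.4 FPKM with si-circRtn4. For both genes, the si-circRtn4 library was above the si-NC library of the same number in 3 of 3 pairs, and the groups overlapped. Their log2 fold changes were 0.12 ± 0.098 for Npm1 (limma adjusted p = 0.501) and 0.10 ± 0.10 for Ncl (limma adjusted p = 0.604). Npm1 has processed pseudogenes in the mouse genome, and how their shared reads were counted is not given in the sources used here.

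The box C/D core methylates ribosomal RNA through its enzyme fibrillarin (Fbl), held by Nop56 and Nop58. Fbl was at 40.7, 46.2 and 49.9 FPKM with si-NC and at 38.7, 47.7 and 52.2 FPKM with si-circRtn4. Nop56 was at 54.8, 73.9 and 78.1 FPKM with si-NC and at 62.9, 81.8 and 83.8 FPKM with si-circRtn4. Nop58 was at 11.8, 13.8 and 15.4 FPKM with si-NC and at 12.3, 14.2 and 13.7 FPKM with si-circRtn4. In all 3 genes, replicate 1 was the lowest library of both groups. Log2 fold changes were 0.01 ± 0.13 for Fbl (limma adjusted p = 0.962) and 0.15 ± 0.16 for Nop56 (limma adjusted p = 0.62). Nop58 had a log2 fold change of -0.02 ± 0.11 (limma adjusted p = 0.947), which turned to 0.074 as TPM, 0.0045 as TPM without Gm23935 and 0.0066 in limma-voom, each below the median of all genes on that scale.

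The box H/ACA core turns uridines of ribosomal RNA into pseudouridine and also stabilises telomerase RNA. Its 4 members all had log2 fold changes above 0, with a median of 0.14, and none passed the test. Dyskerin (Dkc1), the pseudouridine synthase, was at 12.8, 16.8 and 17.4 FPKM with si-NC and at 15.2, 17.8 and 15.6 FPKM with si-circRtn4. Nhp2, which binds the guide RNA, was at 99.7, 127 and 127 FPKM with si-NC and at 103, 145 and 131 FPKM with si-circRtn4. Nop10, the smallest protein of the core, was at 51.0, 54.3 and 53.6 FPKM with si-NC and at 53.4, 69.1 and 60.7 FPKM with si-circRtn4. In each of these 3 genes the groups overlapped.

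Gar1 was the only gene of the H/ACA core without overlap of its groups, where 16.2% of all genes tested were likewise wholly higher. Gar1 lies on chromosome 3, minus strand, from 129824912 to 129831396 (GRCm38) and encodes a protein that helps release the modified RNA. It was at 25.6, 25.1 and 27.1 FPKM with si-NC and at 28.5, 31.3 and 28.9 FPKM with si-circRtn4, so every si-circRtn4 library was above every si-NC library. Its mean was 114% of that of si-NC, a log2 fold change of 0.18 ± 0.072 (limma adjusted p = 0.166; unadjusted p = 0.0376). As TPM it was 0.28 (limma adjusted p = 0.0432), a scale on which 7.62% of all genes were called higher and 3.08% lower, and the median of all genes was 0.090. On the FPKM scale, Nop10 had a log2 fold change of 0.20 ± 0.10, so that of Gar1 was not the largest of the core. The intervals of the other 3 reached 0.34 (Dkc1), 0.44 (Nhp2) and 0.43 (Nop10) at their upper end.

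The small subunit processome, with the U3 snoRNP at its centre, folds and cuts the 18S part of the precursor. It was the largest group, with 21 members between 4.15 and 32.1 FPKM, of which 13 had log2 fold changes above 0 and 8 below. Utp4, also known as cirhin, belongs to the subcomplex that joins the growing transcript first. Its gene is on chromosome 8, plus strand, from 106893636 to 106923088 (GRCm38). Utp4 was at 24.5, 29.96 and 32.3 FPKM with si-NC and at 33.5, 36.7 and 35.5 FPKM with si-circRtn4. All si-circRtn4 libraries were above all si-NC libraries, although the gap between 32.3 and 33.5 FPKM was small next to the si-NC spread of 4.03 FPKM (SD, n = 3). Utp4 had a log2 fold change of 0.28 ± 0.11 (limma adjusted p = 0.15, and 0.0485 with the replicate block). In the unpaired fits that left out 1 library it ran from 0.17 (without si-NC replicate 1) to 0.37, and none of them passed the threshold. The two-sided exact permutation p was 0.1, the smallest that 3 against 3 libraries allow.

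Utp14b stood at the other end of the group. It is a retrogene copy of Utp14a on chromosome 1, plus strand, from 78658038 to 78671512 (GRCm38), known for its role in male germ cells. Utp14b was at 3.56, 5.40 and 5.37 FPKM with si-NC and at 2.72, 3.53 and 4.32 FPKM with si-circRtn4. The si-circRtn4 library was below the si-NC library of the same number in 3 of 3 pairs, but the groups overlapped. On the log2 scale the difference was -0.35 ± 0.18 (limma adjusted p = 0.26, and 0.0388 with the replicate block). Without si-circRtn4 replicate 1 it was -0.22 in the unpaired fit (limma adjusted p = 0.52). Its value is uncertain, because the gene overlaps Acsl3 on the same strand and can share reads with Utp14a. Acsl3, a fatty acid activating enzyme, was at 13.7, 16.0 and 21.8 FPKM with si-NC and at 17.9, 16.3 and 21.9 FPKM with si-circRtn4.

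Utp14a, the X-linked gene from which that copy derives, was at 6.35, 5.64 and 6.92 FPKM with si-NC and at 7.51, 7.12 and 7.59 FPKM with si-circRtn4. The groups did not overlap, and the log2 fold change was 0.21 ± 0.087 (limma adjusted p = 0.186). Utp14a and Utp14b thus lay on opposite sides of 0, and the difference between them was not tested. Rrp9, a protein of the U3 snoRNP, had the highest log2 fold change of all 52 genes. It was at 14.6, 17.5 and 15.9 FPKM with si-NC and at 16.6, 24.3 and 19.4 FPKM with si-circRtn4, with replicate 2 of si-circRtn4 above the rest. Its log2 fold change was 0.30 ± 0.14 (limma adjusted p = 0.218, and 0.0412 with the replicate block). Nop14, which helps carry the early 40S particle towards export, was at 27.2, 26.2 and 32.1 FPKM with si-NC and at 31.8, 34.0 and 33.3 FPKM with si-circRtn4 (log2 fold change 0.21, limma adjusted p = 0.192). Utp14a, Rrp9 and Nop14 were singled out after their values were seen. The other 16 members of the group, Utp3, Utp6, Utp11, Utp15, Utp18, Utp20, Utp23, Nop9, Noc4l, Nol6, Nol7, Nol10, Nol11, Rrp7a, Rrp12 and Rrp36, had log2 fold changes from -0.10 (Rrp36) to 0.16 (Utp15).

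The 60S assembly factors numbered 15, between 3.30 and 86.5 FPKM, with 9 log2 fold changes above 0 and 6 below and a median of 0.058. Bop1, Pes1 and Wdr12 form the PeBoW complex, which is needed to mature the 5.8S and 28S RNAs. Bop1 was at 48.1, 63.2 and 64.1 FPKM with si-NC and at 49.9, 70.4 and 66.9 FPKM with si-circRtn4. Pes1 was at 40.5, 43.4 and 46.7 FPKM with si-NC and at 37.4, 43.8 and 45.9 FPKM with si-circRtn4. Wdr12 was at 2.73, 3.24 and 3.14 FPKM with si-NC and at 3.32, 3.93 and 3.45 FPKM with si-circRtn4. Only Wdr12 among the 3 had groups that did not overlap. Its log2 fold change was 0.18 ± 0.10 (limma adjusted p = 0.309), on 492 to 731 reads per library. Bop1 had a log2 fold change of 0.09 ± 0.16 (limma adjusted p = 0.777). For Pes1 it was -0.04 ± 0.098 (limma adjusted p = 0.836), and it turned to 0.05 as TPM, below the all-gene median of 0.090 on that scale. The 3 subunits of this complex thus showed no shared call, and their intervals reached 0.46 (Bop1), 0.19 (Pes1) and 0.41 (Wdr12).

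Rrp1, a factor of early 60S particles, had the highest level of the 60S group. It was at 84.9, 85.6 and 92.1 FPKM with si-NC and at 80.3, 86.2 and 90.3 FPKM with si-circRtn4. Its log2 fold change was -0.03 ± 0.077 (limma adjusted p = 0.837), which turned to 0.06 as TPM, below the all-gene median of 0.090, and to 0.015 after quantile normalization. Nol8, a nucleolar RNA-binding protein, had the largest log2 fold change of the 60S group. It was at 4.23, 4.49 and 4.38 FPKM with si-NC and at 5.48, 5.48 and 4.602 FPKM with si-circRtn4. Replicate 3 of si-circRtn4 lay close to the si-NC libraries, and the groups did not overlap. The difference was 0.20 ± 0.089 on the log2 scale (limma adjusted p = 0.203). The remaining 10, Nop2, Nop16, Nop53, Noc2l, Noc3l, Nol9, Nol12, Rrp1b, Rrp8 and Rrp15, had log2 fold changes from -0.14 (Nop53) to 0.18 (Rrp15).

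The name rule also took in 3 genes without an established part in ribosome assembly. Nol3 encodes ARC, an inhibitor of cell death, and was at 10.4, 8.32 and 9.88 FPKM with si-NC and at 8.37, 8.31 and 7.64 FPKM with si-circRtn4. Nol4l was at 12.8, 12.8 and 12.9 FPKM with si-NC and at 12.4, 11.4 and 12.2 FPKM with si-circRtn4, the only member whose si-circRtn4 libraries were all below the si-NC libraries. Log2 fold changes were -0.21 ± 0.095 for Nol3 (limma adjusted p = 0.221) and -0.09 ± 0.067 for Nol4l (limma adjusted p = 0.465). In all, the groups did not overlap in 5 genes with higher values (Nol8, Wdr12, Gar1, Utp14a and Utp4) and in 1 with lower values, against 16.2% and 15.5% of all genes tested.

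Most of these genes differed between libraries of the same group in the same way. Replicate 1 was the lowest si-NC library for 42 of 52 genes (80.8%), and the lowest si-circRtn4 library also for 42 (80.8%). Of all genes tested, 40.4% and 37.0% were lowest in these libraries. For 38 of the 52 genes (73.1%) replicate 1 was the lowest of both groups at once, as it was for 22.9% of all genes. The median distance of the 52 genes from their own mean over the 6 libraries was -0.15, 0.025 and 0.066 log2 units with si-NC and -0.099, 0.13 and 0.058 with si-circRtn4. For all genes tested this median stayed between -0.011 and 0.0083 in each library. Replicate 1 had the most reads of the si-NC libraries (14748929) and the fewest of the si-circRtn4 libraries (13541198), and what set it apart was not tested. Without replicate 1 of both groups, an alternative chosen after the data were seen, limma again called 0 of the 52 genes and their median log2 fold change was 0.050.

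**Figure D3:**
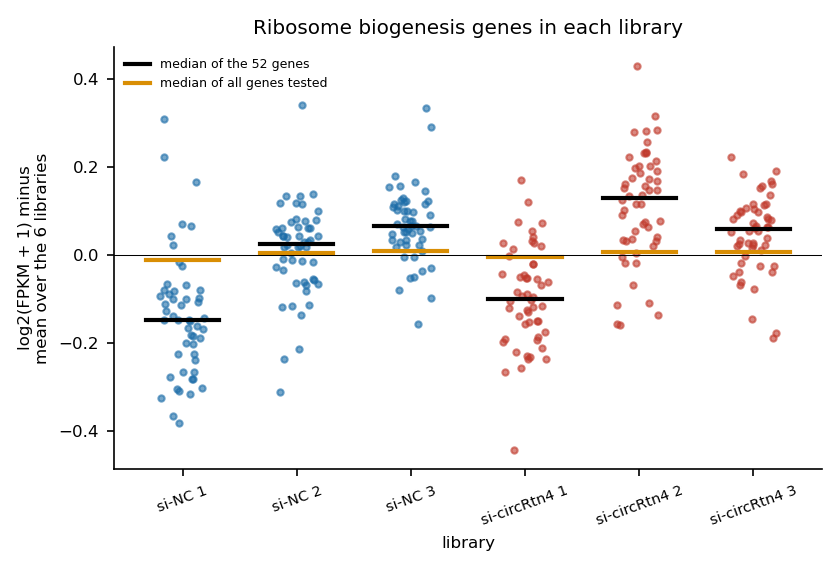
Distance of each of the 52 genes (points) from its own mean over the 6 libraries, in log2(FPKM + 1), by library, with the median of the 52 genes (black) and of all genes tested (orange). Both replicate 1 libraries sit low for these genes (medians -0.15 and -0.099) while the median of all genes stays near 0.

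Other proteins of the same pathway that the name rule does not reach did the same. Of 129 such genes tested, 98 (76.0%) were lowest in si-NC replicate 1, 94 (72.9%) in si-circRtn4 replicate 1, and 81 (62.8%) in both. Since replicate 1 was low in both groups, values were also compared within pairs of the same number. The si-circRtn4 library was higher for 32 of 52 genes in pair 1, for 43 in pair 2 and for 25 in pair 3. The median differences were 0.034, 0.090 and -0.0072 log2 units, so the median changed sign in pair 3, while the summed FPKM of the genes was higher in all 3 pairs. Higher in all 3 pairs were 19 genes (36.5%) and lower in all 3 pairs 5 genes (9.62%), where 28.4% and 28.3% of all genes tested were. The median SD within groups was 0.131 log2 units for the 52 genes and 0.128 for all genes, 2 sets that were not matched for level.

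To see whether the wider pathway differed, genes outside the name rule were grouped by role. Over all 129 protein factors tested, 0 passed higher and 1 lower without the block, against 4.36% and 4.82% of all genes. With the block 4 passed higher and 2 lower, against 9.29% and 9.75% of all genes. In the fit without the block, the median log2 fold change of the 129 was 0.026. No gene passed among 36 other small subunit factors (median 0.027), 46 other 60S assembly and export factors (median 0.016), 10 other RNA polymerase I subunits and initiation and termination factors (median 0.042), 13 snoRNP assembly factors (median 0.026) or 13 proteins of the RNA exosome and its cofactors (median -0.017). At an unadjusted p under 0.05, 4 of the 129 were higher and 2 lower, against 13.1% and 12.8% of all genes. The subunits among them are Twistnb, Cd3eap and Znrd1, which carry older symbols in the table, and had log2 fold changes of 0.21, 0.14 and -0.13. Ubtf, which opens ribosomal DNA for RNA polymerase I, was at 47.1, 47.0 and 43.6 FPKM with si-NC and at 44.5, 43.6 and 42.9 FPKM with si-circRtn4. Its log2 fold change was -0.07 ± 0.068 (limma adjusted p = 0.577) and turned to 0.022 as TPM, below the all-gene median of 0.090. Rrn3, the initiation factor that responds to growth signals, was at 19.9, 22.04 and 20.98 FPKM with si-NC and at 17.8, 19.1 and 20.8 FPKM with si-circRtn4 (log2 fold change -0.12 ± 0.082, limma adjusted p = 0.407).

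**Figure D4:**
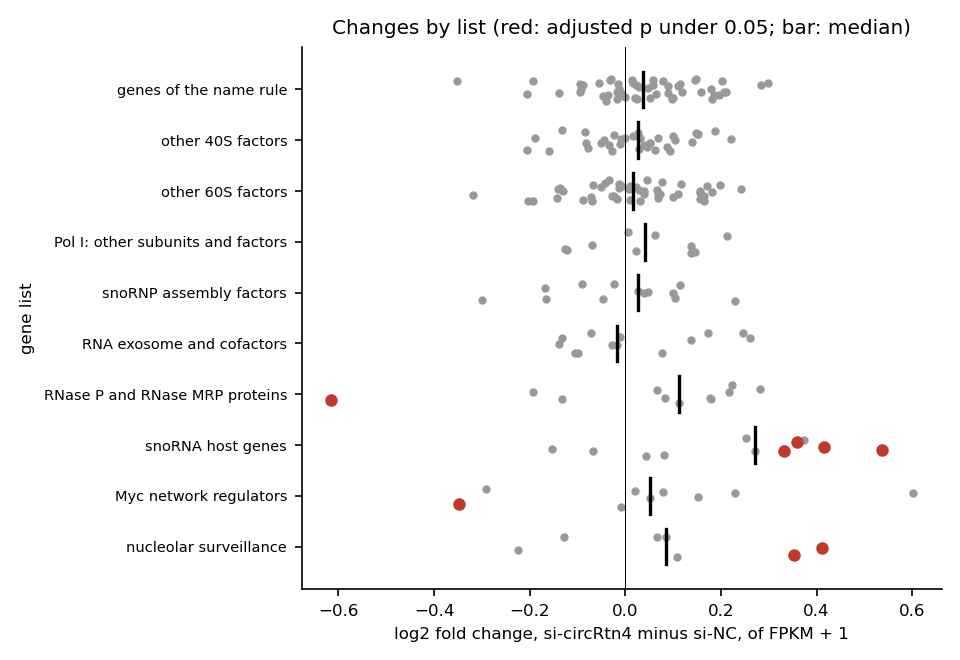
Log2 fold changes (horizontal) of the 52 genes and of 9 lists of related genes (rows), with the median of each as a bar and genes at a limma adjusted p under 0.05 in red. The 52 genes and the lists of assembly factors hold no red point, and the snoRNA host genes hold 4 on the higher side.

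The protein factor whose mRNA fell was Rpp25, a subunit of RNase P and RNase MRP, which cut tRNA and ribosomal RNA precursors. Rpp25 is on chromosome 9, plus strand, from 57504026 to 57505448 (GRCm38). It was at 37.6, 38.1 and 37.1 FPKM with si-NC and at 24.7, 23.1 and 24.7 FPKM with si-circRtn4, or 64.3% of the si-NC mean. The groups were far apart next to their SDs of 0.503 and 0.915 FPKM (n = 3). It fell by 0.62 ± 0.066 on the log2 scale (limma adjusted p = 0.00313), and the log2 fold change stayed between -0.63 and -0.59 when any 1 library was left out, with each such adjusted p under the threshold. The mRNAs of the other 10 proteins of this list did not pass, and the median of all 11 was 0.11.

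Among the non-coding snoRNA host genes, the called ones rose. Their introns carry small nucleolar RNAs, while their spliced transcripts encode no known protein and are short-lived. Of 16 listed genes, 14 were in the table and 11 were tested, of which 4 rose, 0 fell and 7 were higher at an unadjusted p under 0.05, where 4.36% of all genes were called higher and 13.1% were higher at that unadjusted p. With the replicate block 6 rose, against 9.29% of all genes. This list, like the others, was chosen with earlier results of these data known. Snhg8 was at 14.7, 10.7 and 12.9 FPKM with si-NC and at 17.1, 19.2 and 20.3 FPKM with si-circRtn4, on only 132 to 255 reads per library. Snhg12 was at 16.1, 14.4 and 15.9 FPKM with si-NC and at 18.4, 21.7 and 23.1 FPKM with si-circRtn4. In both genes every si-circRtn4 library was above every si-NC library.

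Snhg8 rose by 0.54 ± 0.12 on the log2 scale (limma adjusted p = 0.0332) and Snhg12 by 0.42 ± 0.098 (limma adjusted p = 0.0408). Snhg20, at 20.3, 17.8 and 18.2 FPKM against 25.0, 25.0 and 23.0 FPKM, rose by 0.36 (limma adjusted p = 0.0323). Snhg5, at 33.2, 31.7 and 35.6 FPKM against 41.2, 40.1 and 46.0 FPKM, rose by 0.33 (limma adjusted p = 0.0488). Both complete the 4 and were named after their values were seen. These calls were not firm, since without 1 library the limma adjusted p of Snhg8 reached 0.104 (without si-circRtn4 replicate 2) and that of Snhg12 0.139 (without si-NC replicate 2). Without the filter on low genes 0 of the 4 passed. Of the 7 that did not pass, Zfas1 had a log2 fold change of 0.37, Snhg15 of 0.27, Snhg1 of 0.25, Snhg4 of 0.08, Gas5 of 0.04, Snhg17 of -0.07 and Snhg6 of -0.15. The hosts whose introns carry snoRNAs and that do encode proteins of the rule, Ncl, Nop56, Nop58, Dkc1 and Nop53, had log2 fold changes between -0.14 and 0.15. They hold 14 annotated snoRNA genes on the same strand, of which 5 were above 0 FPKM in at least 1 library.

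The Myc network turns ribosome biogenesis genes up or down, and its members did not share a direction. Myc was at 108, 92.8 and 104 FPKM with si-NC and at 100, 108 and 107 FPKM with si-circRtn4 (log2 fold change 0.05 ± 0.082, limma adjusted p = 0.751). Mycn, the family member that drives many neuroblastomas, was at 12.6, 13.5 and 15.9 FPKM with si-NC and at 18.5, 19.9 and 27.6 FPKM with si-circRtn4. All si-circRtn4 libraries of Mycn were above all si-NC libraries, and replicate 3 was the highest of both groups. Mycn had a log2 fold change of 0.60 ± 0.15 (limma adjusted p = 0.0527, 0.0068 with the replicate block and 0.00876 in limma-voom). Without si-circRtn4 replicate 3 it was 0.43 (limma adjusted p = 0.0842). The highest limma adjusted p of Mycn over the alternatives was 0.156.

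Mxi1, which competes with Myc for its partner Max and represses shared targets, was at 12.6, 11.3 and 11.9 FPKM with si-NC and at 9.51, 8.42 and 9.62 FPKM with si-circRtn4. It fell by 0.35 ± 0.081 on the log2 scale (limma adjusted p = 0.0393), to 76.9% of the si-NC mean. Leaving out any 1 of the 6 libraries ended this call, with limma adjusted p from 0.071 (without si-circRtn4 replicate 3) to 0.115 (without si-circRtn4 replicate 2). It also ended as TPM (limma adjusted p = 0.115), as TPM without Gm23935 (0.0565) and without the filter (0.0903). Mxi1 was the 1 gene of the 9 regulators tested that passed in the fit without the block, where 4.36% of all genes tested were called higher and 4.82% lower.

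Cells sense faulty ribosome assembly through free Rpl5 and Rpl11, which bind Mdm2 and so spare p53. Of 7 genes of this route, Mdm2 and Cdkn1a were called higher, where 4.36% of all genes tested were. Both are targets of p53, and whether ribosome assembly was disturbed was not tested. This list too was chosen with earlier results of these data known. Mdm2 was at 19.98, 19.3 and 20.8 FPKM with si-NC and at 27.1, 26.0 and 24.6 FPKM with si-circRtn4. Cdkn1a, which encodes the cell cycle inhibitor p21, was at 19.3, 19.8 and 20.03 FPKM with si-NC and at 23.9, 30.2 and 25.9 FPKM with si-circRtn4. The groups did not overlap in either gene. Mdm2 rose by 0.35 ± 0.071 on the log2 scale (limma adjusted p = 0.0247) and Cdkn1a by 0.41 ± 0.093 (limma adjusted p = 0.0353). With 1 library left out, the limma adjusted p of Mdm2 ran from 0.0465 (without si-circRtn4 replicate 3) to 0.103 (without si-NC replicate 2), and that of Cdkn1a from 0.0401 (without si-circRtn4 replicate 1) to 0.109 (without si-NC replicate 2). Without the filter Cdkn1a did not pass (limma adjusted p = 0.0906). Trp53, which encodes p53 itself, had a log2 fold change of -0.22 (limma adjusted p = 0.344, and 0.0417 with the replicate block). Rpl5 had a log2 fold change of 0.085, Rpl11 of 0.11, Cdkn2a of 0.067 and Mdm4 of -0.13, and none of these passed.

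**Figure D5:**
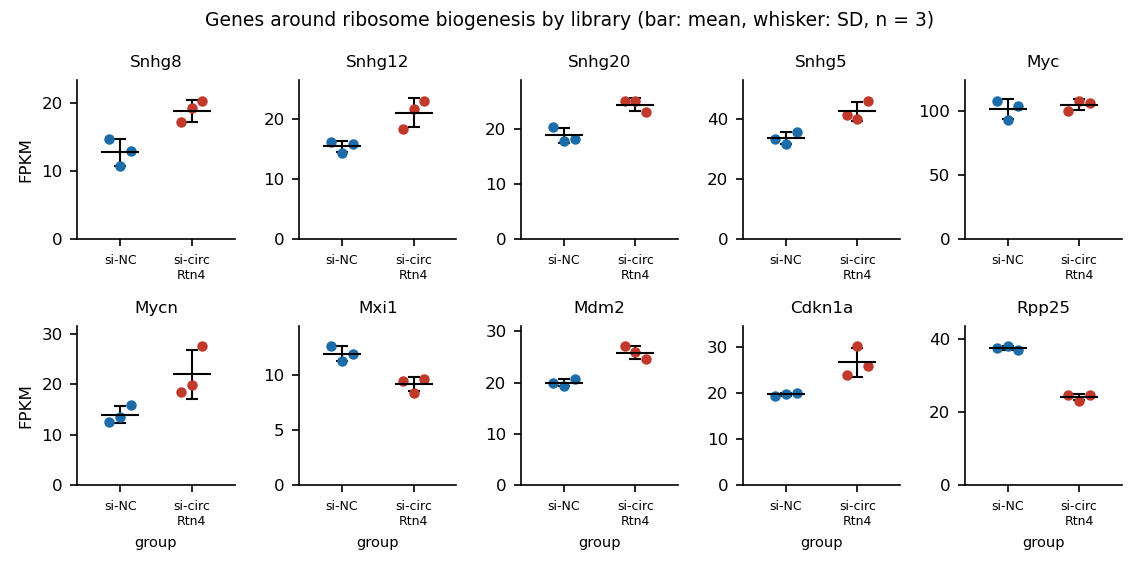
FPKM of 10 genes around ribosome biogenesis in each library (points), with the mean and SD of 3 libraries per group and axes from 0. The si-circRtn4 points lie wholly above the si-NC points for the 4 Snhg genes, Mycn, Mdm2 and Cdkn1a, wholly below for Mxi1 and Rpp25, and overlap for Myc.

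Myc proteins bind the E-box CACGTG, so the promoters of these genes were searched for it. The letters are their own reverse complement, so 1 search covers both strands. RefSeq windows (GRCm38.p6) from 250 bases before to 50 after the start were matched by symbol for 42 of the 53 genes, with 50 windows. CACGTG was found in 8 of the 50 windows (16%) and in 2349 of 32851 windows of the whole table (7.15%). Stretches from 3 of them are shown, with the E-box in capitals, because they belong to the members with the lowest adjusted p and the lowest log2 fold change, and to a subunit of PeBoW.
Utp4, chr8:106893643-106893672, plus strand: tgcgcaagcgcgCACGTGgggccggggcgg
Utp14b, chr1:78658365-78658394, plus strand: cgcgggcgcgggCACGTGggtggggtcgtc
Pes1, chr11:3963965-3963994, plus strand: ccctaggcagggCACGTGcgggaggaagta
Counted from the RefSeq start of each window, the motif begins 16 bases after it in Utp4, 63 before it in Utp14b and 3 after it in Pes1. For Utp14b that start lies downstream of the gene start in the deposited table, so the stretch shown is inside the gene as that table draws it. Their log2 fold changes were 0.28, -0.35 and -0.04, so genes with the motif lay on both sides of 0. The other 5 were Nol11, Nop2, Rrp7a, Utp18 and Utp20, with log2 fold changes from -0.013 to 0.15. A match is a description of the letters and no evidence of binding.

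An siRNA can also act on mRNAs that match its seed, bases 2 to 8 of the guide strand, and circRtn4 was studied as a partner of miR-24-3p. The sequences are shown with the seed, or the stretch that pairs with it, in capitals. The first is the siRNA strand as the study lists it, the second its reverse complement, taken here as the guide, and the third is from RefSeq.
si-circRtn4, listed strand: cttcagatgagACCCTTTt
si-circRtn4, guide strand: aAAAGGGTctcatctgaag
mmu-miR-24-3p: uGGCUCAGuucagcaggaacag
The mRNA letters that pair with the guide seed are ACCCTTT, and those that pair with the miR-24-3p seed are CTGAGCC. They were searched for, on the mRNA strand, in each gene's longest 3′ UTR as annotated by GENCODE M21 (GRCm38). The median length was 861.5 bases for the 52 genes and 1169 bases for the 10694 genes tested that had one.

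ACCCTTT was in the 3′ UTR of 6 of 52 genes (11.5%), against 12.5% of all. These were Ncl, Npm1, Nop58, Wdr12, Nol4l and Rrp7a, and their log2 fold changes ran from -0.088 to 0.18. The median of the 6 was 0.060, and that of the other genes of the rule was 0.038. The site in the most abundant gene and both sites in Ncl are shown, with the site in capitals.
Npm1, bases 182 to 188 of 527: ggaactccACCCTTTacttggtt
Ncl, bases 2238 to 2244 of 5901: gtggtaaaACCCTTTgccataga
Ncl, bases 2773 to 2779 of 5901: attttttaACCCTTTgaaaaaaa
Of the 6, Npm1, Ncl, Wdr12 and Rrp7a had log2 fold changes of 0.12, 0.10, 0.18 and 0.021. Those of Nop58 and Nol4l were -0.016 and -0.088. Whether these cells express the longest annotated 3′ UTR was not tested, and neither was an effect through the seed.

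CTGAGCC was in the 3′ UTR of 8 of 52 genes (15.4%), against 19.6% of all. Ncl, Nop58 and Polr1a held 2 sites each, Nop53 held 3, and Nol3, Nol4l, Polr1e and Rrp7a held 1. The site in Nol3 is shown, since it had the lowest log2 fold change of the 8.
Nol3, bases 1615 to 1621 of 2037: ctgggtctCTGAGCCtgagtgac
The log2 fold changes ran from -0.21 (Nol3) to 0.10 (Ncl), with none past the threshold. Their median was -0.052, and that of the genes without the site was 0.055, 2 descriptions over few genes with no test between them.

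Some of these values share sequence or position with other genes. Of the 52 genes tested, 12 overlap an expressed protein-coding gene, 11 of them on the opposite strand, and whether counting used strand is not given in the sources used here. For a few the partner itself passed the test. Bop1 overlaps Mroh1 (log2 fold change 0.42, limma adjusted p = 0.0172), Nop56 overlaps Idh3b (-0.34, limma adjusted p = 0.0214) and Noc2l overlaps Samd11 (-0.74, limma adjusted p = 0.0116). Their own log2 fold changes were 0.09, 0.15 and 0.05, and the part of the shared stretch in them was not tested.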

How the data were processed

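How RNA was selected for the libraries and the counting tool are not given in the sources used here. The submitters' processing notes name Bowtie 0.12.2 and the builds mm8 and mm9, with no role. The authors deposited FPKM per gene, with gene length, as 1 table, and its coordinates equal those of GENCODE M21 (GRCm38) for 53499 of 54532 genes (98.1%) and for 52 of the 53 members. The 6 columns of other samples were not used. FPKM times gene length gave whole reads for 100% of values in each library (tolerance 0.01), 13541198 to 15122063 reads on genes.

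log2(FPKM + 1) of the 12749 genes averaging 1 FPKM or more was tested with limma 3.58.1 in R 4.3.3 (eBayes with trend), and p-values were adjusted by Benjamini-Hochberg over all of them. Fold changes on this scale understate those of low genes. The ± after a log2 fold change is the SE. Labels do not say that replicates were separate cultures, so p-values measure the spread between these 3 libraries per group. Deviations from group means correlated at 0.331, 0.19 and 0.226 between libraries of the same number and at 0.0091 at most between others. The numbers were therefore taken to pair libraries where a replicate block was fitted. Deviations cancel within each group of 3, so higher values for the same number go with lower values for the others. The pairing rests on these same data. The labels do not say what a number shares.

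Alternatives were TPM, TPM without Gm23935 (a short RNA gene holding 13.5% to 20.7% of all FPKM), quantile normalization, a pseudocount of 0.1, no filter, limma-voom on recovered reads, the block, and each library left out. Leaving out replicate 1 of both groups was added after the data were seen. The members, lists and tests were chosen with earlier results of these data known. Named were, in each role, the highest gene and the gene with the largest change, the RNA polymerase I subunits, the snoRNP cores, Ncl, Npm1, PeBoW, Myc, Mycn, Ubtf, Rrn3, Rtn4, and the 2 largest called genes of each other list. Promoters and miRNAs are from RefSeq. Scripts were tested on simulated data. Python 3.11.15 was used for figures and sequence searches.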

Additional observations from a re-analysis of the deposited data

How the results depend on the processing

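Of the 34 named genes, 21 kept their direction and 24 their side of the threshold in all 14 alternatives. Over all genes tested, the 556 higher and 615 lower calls became 972 and 393 as TPM, 902 higher in limma-voom, 180 and 240 without a filter, 1185 and 1243 with the replicate block, and 139 to 407 and 182 to 419 with libraries left out (fewest without replicate 1 of both groups). Among the 52 genes, 1 was higher as TPM, and 2 were higher and 1 lower with the block. With the block, 1 other small subunit factor, 1 snoRNP assembly factor and 2 exosome genes were higher, and 1 other 60S factor and 1 surveillance gene lower. As TPM, 1 exosome gene was higher. Over all protein factors outside the rule, 1 was higher as TPM, and 4 were higher and 2 lower with the block. The 4 higher snoRNA hosts became 0 without a filter and 0 to 2 with libraries left out, and the 2 higher surveillance genes became 1 and 0 to 1. Among regulators, Mycn was the 1 higher gene as TPM, as TPM without Gm23935, in limma-voom, after quantile normalization and with the block, and 0 were lower as TPM, as TPM without Gm23935, without a filter, and 0 to 0 with libraries left out. Among the named genes the block changed the calls of Utp4, Utp14b, Mycn and Rtn4 and no other. The cause of these shifts was not tested.

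Direction turned for Rrp1 (0.060 as TPM, 0.015 quantile), Polr1b (0.081 as TPM, 0.011 as TPM without Gm23935, 0.014 limma-voom), Nop58 (0.074, 0.0045, 0.0066 in the same order), Pes1 (0.050 as TPM) and Ubtf (0.022 as TPM). TPM, TPM without Gm23935 and limma-voom move the median of all genes to 0.090, 0.021 and 0.025, and each of these values on those scales lies below it. With libraries left out, log2 fold changes crossed 0 for Rrp1 (-0.071 to 0.013), Polr1b (-0.086 to 0.039), Nop58 (-0.11 to 0.069), Pes1 (-0.10 to 0.044), Polr1c (-0.038 to 0.077), Polr1e (-0.059 to 0.17), Fbl (-0.077 to 0.13), Nop56 (-0.0077 to 0.28), Nhp2 (-0.028 to 0.23), Dkc1 (-0.076 to 0.13), Bop1 (-0.044 to 0.24) and Myc (-0.011 to 0.13). The median of the 52 genes ran from -0.037 to 0.10. With 3 libraries per group, changes smaller than the intervals given could not be resolved.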
